A study of Mus musculus with 4 samples.

Results

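The comparison described here is that of colon mucosa carrying the Min mutation of Apc with colon mucosa carrying normal Apc, both from mice whose intestinal epithelium kept Vhl. It sets the VhlF/F/Apcmin/+ array against the VhlF/F array, 2 of the 4 arrays of the series. A gene entered when a probe set listed with exactly 1 symbol reached the floor, a log2 value of 6, on any of the 4 arrays, and was read from its probe set of the highest mean. This left 11871 of 18194 genes. The mice were of the 129S6/SvEv strain and 5 weeks old, and total RNA came from scraped colonic mucosa. The VhlF/F group carried Vhl alleles flanked by loxP sites and no Apc mutation, and the design text counts 4 such mice. The VhlF/F/Apcmin/+ group carried the same floxed alleles and 1 mutant Apc allele, which the labels call a model of intestinal tumours, and 3 such mice are counted. In the other 2 groups, VhlΔIE with 3 mice and VhlΔIE/Apcmin/+ with 5, Vhl was deleted from the intestine. The promoter that drove Cre is not given in the labels, nor is it stated whether the RNA of several mice was pooled for an array. Each genotype was measured on 1 array, so the differences have no replicate check, no p-value is given, and the number of arrays limits the precision. All values are deposited RMA values on the log2 scale, on which a difference of 1 is 2-fold, and all differences are the VhlF/F/Apcmin/+ array minus the VhlF/F array unless another pair is named.

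Apc is the scaffold of a cytoplasmic complex that phosphorylates beta-catenin and marks it for destruction. When Wnt ligands bind their receptors, or when Apc is lost, beta-catenin enters the nucleus and activates genes through TCF and LEF transcription factors, among them Axin2, Lgr5 and Myc. In the intestine this pathway maintains the stem cells at the base of the crypts. The Min allele is a point mutation that truncates the protein, and mice with a single mutant allele develop adenomas in which the remaining normal allele has been lost. Tissue scraped from a heterozygous mouse therefore holds mostly cells that still have a normal copy.

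Labels and tissue were checked first. Vhl read 8.40 in the VhlF/F array and 8.17 in the VhlF/F/Apcmin/+ array, against 7.04 and 6.56 in the VhlΔIE and VhlΔIE/Apcmin/+ arrays. Cre recombinase, for which the array holds 4 control probe sets, gave 2.97 to 4.45 in both floxed arrays and 7.41 to 9.95 in both deleted arrays. Apc itself read 10.17 without and 10.33 with the Min allele, which checks nothing, since a point mutation need not alter the level of the transcript. Both arrays carried the defining transcripts of colonic epithelium at high levels. The carbonic anhydrase Car1 read 13.75 and 13.79, the chloride exchanger Slc26a3 13.65 and 13.65, and the gel-forming mucin Muc2 14.19 and 13.90. Xist, expressed from the inactive X chromosome of females, read 11.37 and 11.83, and the Y-linked genes Eif2s3y, Kdm5d and Uty, the 3 genes of chromosome Y above the floor, were lower by 1.31, 1.47 and 1.19 with mutant Apc. Both floxed arrays thus held transcripts of both sexes, in different proportions. In the VhlΔIE and VhlΔIE/Apcmin/+ arrays, used below to place the floxed arrays, Xist read 5.58 and 6.25 and Eif2s3y 8.78 and 8.80, so their sex makeup differed from that of both floxed arrays. Sex makeup and Apc genotype cannot be told apart in any difference between the floxed arrays below. In the VhlΔIE/Apcmin/+ array minus the VhlΔIE array, Eif2s3y, Kdm5d and Uty differed less, by 0.03, -0.18 and -0.13, and Xist by 0.67.

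With mutant Apc 14 genes reached a 2-fold higher level, 0.118% of those compared. A level lower by 2-fold or more was found for 107, or 0.901%. The 121 genes together were 1.02% of all. Most genes lay close to each other in the 2 arrays, with 50% of the differences between -0.12 and 0.12, and 50.8% of all differences were positive. The standard deviation of the differences across genes was 0.31, and 0.21 for the corresponding comparison with deleted Vhl. The genes just past the threshold were Hspa1a at -1.003, Esco2 at -1.01 and Apoa5 at -1.02, and those just short of it Rgs5 at -0.99, Apol6 at -0.99 and Ugt2b36 at -0.98.

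The 4 arrays show which array, if any, was unusual for a gene. A gene was counted as set apart by 1 array when that array lay at least 1 from the nearest of the other 3 and those 3 lay within 1 of each other. The VhlF/F array was apart for 32 of the 121 genes, 0.27% of all genes, and all 32 were lower with mutant Apc. The VhlF/F/Apcmin/+ array was apart for 30, 0.253% of all genes, of which 8 were higher and 22 lower. The other genes, 6 higher and 53 lower, met neither description. Of the 32 genes high in the VhlF/F array alone, 16 were on a list of hepatocyte markers, against 2 of the 22 that were low in the VhlF/F/Apcmin/+ array alone. A gene that reached the floor in the VhlF/F array only could enter through that array, which favours the first count. Of the 16 hepatocyte markers, all but Apoa2 entered in this way, and the list was chosen with earlier results of these data known. The filter and the choice of list thus largely fix the 16, and its contrast with the 2 is description only. Where the VhlF/F array alone stands apart, it differs from the arrays with deleted Vhl as well. It is the only array with neither the Apc mutation nor deletion of Vhl, so array and genotype cannot be told apart.

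**Figure D1:**
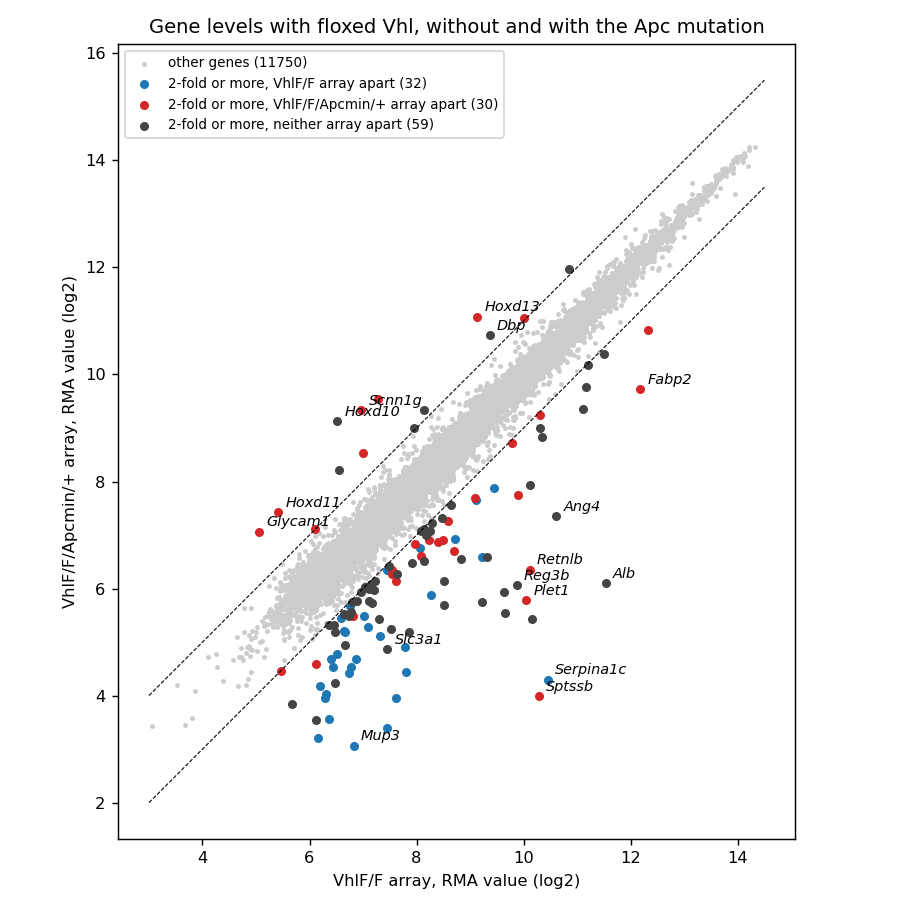
Each point is 1 of 11871 genes, with its log2 value in the VhlF/F array on the horizontal axis and in the VhlF/F/Apcmin/+ array on the vertical axis, and dashed lines mark a 2-fold difference. The 14 points above the upper line reach 2.60 at Hoxd10, and the 107 below the lower line reach -6.30 at Sptssb; blue marks the 32 genes set apart by the VhlF/F array and red the 30 set apart by the VhlF/F/Apcmin/+ array.

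The genes that were higher with mutant Apc were led by the 5′ end of the Hoxd cluster. Hox genes encode homeodomain transcription factors that give cells their position along the body axis, and those at the 5′ end of a cluster mark the hindmost parts, including the distal hindgut. Hoxd10 read 6.52 in the VhlF/F array, 9.13 in the VhlF/F/Apcmin/+ array, 5.38 in the VhlΔIE array and 6.77 in the VhlΔIE/Apcmin/+ array. It was 6.08-fold higher with mutant Apc, the largest difference among the higher genes. Hoxd11 read 5.41, 7.43, 4.81 and 5.52 in the same order, a difference of 2.02. Hoxd13 read 9.13, 11.08, 8.65 and 9.05, a difference of 1.95, and its second probe set gave 1.81. In each of these genes the VhlF/F/Apcmin/+ array was the highest of the 4, and the other arrays lay at least 1.91 below it.

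The cluster runs in the order Hoxd13, Hoxd12, Hoxd11, Hoxd10, Hoxd9, Hoxd8 from its 5′ end, and the difference was highest at Hoxd10 and smaller on the 3′ side of it. Hoxd9 read 6.95 without and 7.61 with mutant Apc, a difference of 0.67, and Hoxd8 read 6.19 and 6.40, a difference of 0.21. Hoxd12 stayed below the floor, at 4.31 and 4.71, a difference of 0.39. Mtx2, a mitochondrial import gene that lies beyond the 3′ end of the cluster, differed by 0.13. Of the 11 members of the Hoxd list 10 had a probe set and 6 passed the floor, with a median of 1.31 against 0.00 for all genes. The 6 include Mtx2, which is not a Hox gene. Hoxd11 passed the floor only through the VhlF/F/Apcmin/+ array, so the filter partly fixes this median. Without a floor it was 0.30. The other Hox clusters gave different values. The median of 7 Hoxa genes was -0.24, with Hoxa11 at -0.55, Hoxa10 at -0.40 and Hoxa13, the hindmost member, at -0.02. The 4 Hoxb genes above the floor had a median of -0.02, with Hoxb13 at 0.35, and none of the 9 Hoxc genes passed the floor. Cdx2 and Cdx1, the homeobox genes that specify intestinal identity, differed by -0.64 and 0.05. Isx, a homeobox gene best known from the small intestine, where it represses genes of vitamin A uptake, read 8.27 in the VhlF/F array, 5.88 in the VhlF/F/Apcmin/+ array, 5.62 in the VhlΔIE array and 6.004 in the VhlΔIE/Apcmin/+ array. For Isx it was thus the VhlF/F array that stood apart. Position along the colon is what Hox genes mark, and the stretch of colon scraped for each array is not given in the sources used here, so it cannot be told apart from genotype.

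The sequences upstream of the higher genes were searched because neighbouring Hoxd genes were higher together. RefSeq promoters on GRCm38.p6 were held for 9565 of the 11871 genes and for all 14 higher genes, and the 250 bases before each start were read on both strands. The E-box CACGTG, the letters bound by basic helix-loop-helix factors such as Myc and the clock protein Clock, occurred upstream of 947 genes, 9.90% of all. It occurred in 5 of the 14 higher genes, Hoxd10, Hoxd11, Hoxd13, Ciart and Defb45, and in 3 of 87 lower genes. The letters bound by TCF and LEF factors, searched as CTTTG with A or T at each of the next 2 positions, occurred in 12.2% of all promoters, in 2 of the 14 higher genes, Glycam1 and S100g, and in 19 of the 87 lower genes. A match describes the letters and shows no binding. The upstream sequences of the 3 Hoxd genes are printed 5′ to 3′ with the E-box in capitals. They lie on the plus strand of GRCm38.p6, at chr2:74691641-74691890 for Hoxd10, at chr2:74682073-74682322 for Hoxd11, which has a second listed start, and at chr2:74667975-74668224 for Hoxd13. The match begins 73, 96 and 229 bases before the start.
Hoxd10: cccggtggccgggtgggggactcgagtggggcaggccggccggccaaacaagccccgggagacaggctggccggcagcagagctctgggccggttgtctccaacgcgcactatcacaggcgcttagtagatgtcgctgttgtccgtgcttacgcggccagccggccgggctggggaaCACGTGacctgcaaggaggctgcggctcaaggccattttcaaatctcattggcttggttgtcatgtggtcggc
Hoxd11: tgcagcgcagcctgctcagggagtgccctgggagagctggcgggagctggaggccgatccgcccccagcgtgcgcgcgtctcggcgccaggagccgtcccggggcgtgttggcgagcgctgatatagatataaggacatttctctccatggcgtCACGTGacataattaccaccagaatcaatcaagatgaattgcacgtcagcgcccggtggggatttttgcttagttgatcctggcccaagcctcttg
Hoxd13: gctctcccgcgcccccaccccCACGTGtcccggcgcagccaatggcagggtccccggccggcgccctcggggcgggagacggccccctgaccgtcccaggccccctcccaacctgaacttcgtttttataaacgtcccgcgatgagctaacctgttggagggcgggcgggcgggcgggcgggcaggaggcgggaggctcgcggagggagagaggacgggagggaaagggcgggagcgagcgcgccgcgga

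Next to the Hoxd genes, the higher genes included channels and carriers of the absorptive epithelium. Scnn1g encodes the gamma subunit of the epithelial sodium channel, which takes up sodium in the distal colon under aldosterone. It read 6.97 in the VhlF/F array and 9.33 in the VhlF/F/Apcmin/+ array, and 6.53 and 6.51 in the VhlΔIE and VhlΔIE/Apcmin/+ arrays, so the VhlF/F/Apcmin/+ array lay 2.36 above the nearest other. Scnn1b, the beta subunit, read 7.76 and 8.54, a difference of 0.77. Scnn1a, the alpha subunit, differed by 0.10. Among the other members, Fxyd4, which modulates the sodium pump, differed by 0.64, Slc9a3, the sodium-proton exchanger NHE3, by -0.82, and the aldosterone receptor gene Nr3c2 by 0.26. Sgk1, a kinase induced by aldosterone, differed by 0.01. Scnn1g was the only 2-fold member of the 15 of this list above the floor, and the list median was 0.06.

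S100g encodes calbindin-D9k, which carries calcium through the cytoplasm of absorptive cells and is induced by vitamin D. It read 7.28 in the VhlF/F array, 9.54 in the VhlF/F/Apcmin/+ array, 6.88 in the VhlΔIE array and 6.58 in the VhlΔIE/Apcmin/+ array, and no other array came within 2 of the highest. Trpv6, the apical calcium channel, differed by 0.54 and Vdr, the vitamin D receptor, by 0.30. Slc8a1, a sodium-calcium exchanger of the plasma membrane, was 2-fold lower, at 6.88 without and 5.78 with mutant Apc. The list of calcium absorption genes held 6 members above the floor, 5 higher and 1 lower, with a median of 0.24. Letters bound by TCF and LEF factors occurred in 12.2% of all promoters, and a match shows no binding. The upstream sequence of S100g, at chrX:162964600-162964849 on the minus strand of GRCm38.p6, is shown for its TCF/LEF letters, in capitals, which begin 44 bases before the start.
S100g: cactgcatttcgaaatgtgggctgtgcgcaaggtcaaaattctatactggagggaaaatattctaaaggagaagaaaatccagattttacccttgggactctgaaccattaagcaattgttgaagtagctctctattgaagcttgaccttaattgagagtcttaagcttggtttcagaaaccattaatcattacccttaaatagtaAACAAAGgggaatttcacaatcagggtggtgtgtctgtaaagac

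Slc4a4, the sodium-bicarbonate cotransporter of the basolateral membrane, read 10.01 and 11.05, and 9.81 and 9.95 in the VhlΔIE and VhlΔIE/Apcmin/+ arrays. All 4 of its probe sets above the floor were higher with mutant Apc. It belongs to a list of chloride and bicarbonate transport genes whose 14 members had a median of 0.07, with the biotin and pantothenate carrier Slc5a6 at 0.91, the goblet cell channel Best2 at 0.54 and the chloride channel Cftr at -0.50. Upp1, uridine phosphorylase, read 10.85 and 11.97, with 11.53 and 11.55 in the arrays with deleted Vhl, so here the VhlF/F array was the lowest. Abcg5, a subunit of a sterol exporter, read 6.10 and 7.12. Defb45, a beta-defensin, read 8.13 and 9.34, and lower, at 7.07 and 7.09, in the arrays with deleted Vhl. Wnt8b, a Wnt ligand, read 6.54 in the VhlF/F array and 8.22 in the VhlF/F/Apcmin/+ array, a difference of 1.68, and its second probe set gave 1.47. Glycam1, a mucin-like ligand of L-selectin made by high endothelial venules, read 5.06 and 7.07. Its other values of 5.36 and 5.12 lay below the floor. Cttnbp2 read 7.96 and 8.996, but its other probe set above the floor differed by -0.08.

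**Figure D2:**
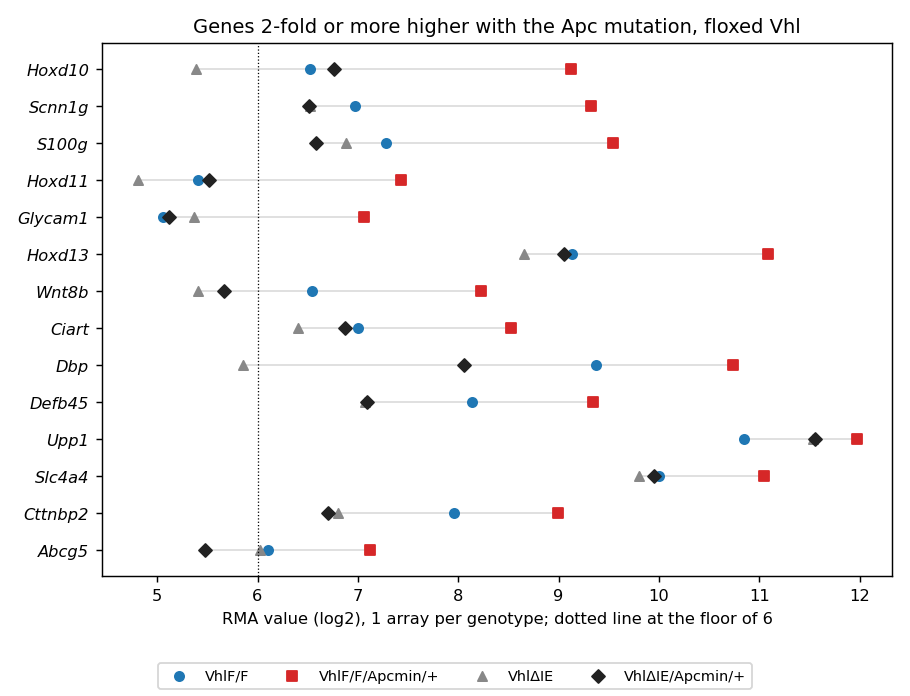
The 14 genes at least 2-fold higher with mutant Apc, 1 row per gene, with the log2 value of each of the 4 arrays on the horizontal axis and a dotted line at the floor of 6. The red squares of the VhlF/F/Apcmin/+ array are the highest mark in every row; the blue circle of the VhlF/F array is the lowest mark in the rows of Upp1 and Glycam1.

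Ciart and Dbp are outputs of the circadian clock. Ciart, a repressor of the clock, read 6.9985 in the VhlF/F array and 8.52 in the VhlF/F/Apcmin/+ array, and Dbp, a transcription factor with a strong daily rhythm, 9.37 and 10.74. Dbp also varied among the other arrays, at 5.86 in the VhlΔIE array and 8.05 in the VhlΔIE/Apcmin/+ array. Its second probe set gave a difference of 1.72. Of the 21 members of the clock list above the floor 13 were higher and 8 lower, with a median of 0.28. Among the higher members were targets of Clock and Arntl, the nuclear receptor Nr1d1 at 0.91, the period genes Per3 and Per1 at 0.78 and 0.71, the deubiquitinase Usp2 at 0.77 and Tef, a factor related to Dbp, at 0.61. Among the lower members were Arntl at -0.62, its relative Npas2 at -0.71, Nfil3, which represses the genes that Dbp activates, at -0.87, and Cry1 at -0.50. The hour at which tissue was taken is not given in the sources used here and cannot be told apart from genotype. An E-box lay upstream of 4 of the 17 clock genes with a promoter, Ciart, Cry1, Per1 and Tef. Ciart is printed with its 3 matches in capitals, at chr3:95882229-95882478 on the minus strand of GRCm38.p6; they begin 116, 58 and 44 bases before the start.
Ciart: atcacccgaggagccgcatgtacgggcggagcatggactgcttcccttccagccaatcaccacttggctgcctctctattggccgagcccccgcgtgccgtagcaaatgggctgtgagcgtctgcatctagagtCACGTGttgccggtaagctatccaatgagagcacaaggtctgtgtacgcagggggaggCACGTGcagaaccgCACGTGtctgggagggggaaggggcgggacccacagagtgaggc

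The Wnt pathway itself differed little. Of 32 listed target genes 22 passed the floor, 11 higher and 11 lower, with a median of 0.02 and none 2-fold apart. Axin2, a negative feedback target often taken as a readout of the pathway, read 8.55 without and 8.62 with mutant Apc. Lgr5, the stem cell receptor for R-spondins, read 7.51 and 7.71, and Myc differed by -0.01. The outermost members were Rnf43, a ubiquitin ligase that removes Wnt receptors, at 0.54, and the adhesion receptor Cd44 at -0.49. The 3 Cd44 probe sets above the floor did not share a direction and ran from -0.49 to 0.33. Sp5, Notum, Lef1 and Wif1, other targets, lay below the floor. The 15 genes of the beta-catenin destruction complex and its partners lay between -0.28 for the kinase Csnk1a1 and 0.16 for Apc. Ctnnb1, which encodes beta-catenin, differed by -0.10, but 2 of its 3 probe sets above the floor were higher. Of 30 receptors and extracellular inhibitors 22 passed the floor with a median of 0.03, among them the receptor Fzd3 at -0.91 and the inhibitor Sfrp2 at 0.64. TCF and LEF factors and their cofactors had a median of -0.07 over 11 members, with the corepressor Tle4 at 0.59 and the coactivator Bcl9 at -0.45. Wnt8b was the only 2-fold member among 9 genes above the floor on the list of ligands, which also holds the secretion factors Wls and Porcn. The median of the 9 was 0.15.

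Stem cell markers, 14 above the floor, had a median of 0.05 and no 2-fold member, with Prom1 at -0.59 and Hopx at 0.35. Proliferation genes were slightly lower as a list. Of the 25 above the floor 23 were lower with mutant Apc and 2 higher, with a median of -0.24 and none 2-fold apart. The ribonucleotide reductase subunit Rrm2 differed by -0.73, the replicative helicase subunit Mcm5 by -0.66 and the mitotic kinase Aurkb by -0.57, while Foxm1, a transcription factor of mitotic genes, differed by 0.30. Another Aurkb probe set above the floor gave 0.04. In 23 of the 25 the VhlF/F/Apcmin/+ array was the lowest of the 4. The mean level of the list was 8.58 in the VhlF/F array and 8.30 in the VhlF/F/Apcmin/+ array. It was higher, at 9.24 and 9.12, in the VhlΔIE and VhlΔIE/Apcmin/+ arrays. Being the lowest of the 4 thus adds little to being lower than the VhlF/F array. The same list had a median of -0.14 in the comparison with deleted Vhl.

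Among the lower genes, Sptssb, Plet1 and Retnlb were low in the VhlF/F/Apcmin/+ array alone. Sptssb encodes a small subunit of serine palmitoyltransferase, the enzyme that starts sphingolipid synthesis, and shifts its substrate preference to longer acyl chains. It read 10.29 in the VhlF/F array and 3.98 in the VhlF/F/Apcmin/+ array, and 10.17 and 11.002 in the VhlΔIE and VhlΔIE/Apcmin/+ arrays. The difference of -6.30 was the lowest of the comparison, and the second probe set gave -4.34. Since 3.98 lies below the floor, the size is not fixed. With values under 6 raised to 6 the difference was -4.29, against -5.44 for Alb and -4.45 for Serpina1c. No other of the 25 sphingolipid genes above the floor was 2-fold apart. The catalytic subunits Sptlc1 and Sptlc2 differed by 0.03 and 0.10, the other small subunit, Sptssa, by -0.09, and the sphingosine kinase Sphk1 by 0.63. Plet1, a surface protein of progenitor cells, read 10.04 and 5.78, and 9.58 and 10.38 in the arrays with deleted Vhl. Its 3 probe sets disagreed in size, at -4.26, -2.87 and -0.03. Slc3a1, the heavy subunit of a transporter for cystine and basic amino acids, read 7.46 and 4.87, and 8.28 and 9.45 in the arrays with deleted Vhl. Here the VhlF/F/Apcmin/+ array was the lowest, but the other 3 arrays lay more than 1 apart.

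Secreted host defence proteins made up the next group. Retnlb, a bactericidal protein of goblet cells, read 10.12 in the VhlF/F array and 6.35 in the VhlF/F/Apcmin/+ array, and 9.64 and 10.36 in the arrays with deleted Vhl. Reg3b and Reg3g are lectins secreted against bacteria, and both were low where Apc was mutant. Reg3b read 9.87 and 6.06 in the floxed arrays without and with mutant Apc, and 9.81 and 7.67 in the deleted ones. Reg3g read 7.53 and 5.25 in the floxed arrays, and 7.37 and 6.04 in the deleted ones. Ang4, an antimicrobial ribonuclease, read 10.61 and 7.35 in the floxed arrays, and 9.17 and 11.66 in the deleted ones, where the order was the opposite. Of the 21 genes of the host defence list above the floor these 4 were 2-fold lower and Defb45 2-fold higher, and the list median was 0.09. Of 16 goblet cell markers, all above the floor, 13 were lower and 3 higher, with a median of -0.07 and Retnlb as the only 2-fold member, and Spdef, the transcription factor of goblet cells, differed by -0.43.

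Enzymes that build glycans were another group. B3gnt6, which makes the core 3 glycans of colonic mucins, read 8.51 in the VhlF/F array, 5.70 in the VhlF/F/Apcmin/+ array, 6.32 in the VhlΔIE array and 7.83 in the VhlΔIE/Apcmin/+ array. B4galnt1, which makes complex gangliosides, read 8.51, 6.14, 7.39 and 8.50 in that order. Cmah, which converts sialic acid to its glycolyl form, read 8.83, 6.56, 7.71 and 8.54. In these 3 genes the VhlF/F/Apcmin/+ array was lowest and the VhlΔIE array second lowest. Of 21 mucin-type and glycolipid glycosyltransferases above the floor 16 were lower, B3gnt6 and B4galnt1 by 2-fold or more, with a median of -0.16.

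Some absorptive cell genes that are typical of the small intestine were also lower. Of 24 such markers 17 passed the floor, 13 lower and 4 higher, with a median of -0.16. Of these 6 were 2-fold lower and 11 not 2-fold apart. The 4 higher members were the retinol carrier Rbp2 at 0.53, the glucose transporter Slc5a1 at 0.32, the peptidase Dpp4 at 0.30 and Mttp, which loads lipid onto lipoproteins, at 0.22. Fabp2, the intestinal fatty acid binding protein, read 12.17 and 9.73, and 11.31 and 11.74 in the arrays with deleted Vhl. Alpi, the intestinal alkaline phosphatase of the brush border, read 8.13 and 6.51, and 7.13 and 7.99 with deleted Vhl. The other 4 are made in liver as well as in small intestine, and Apoa1 and Apoc3 are also on the hepatocyte list used below. Fabp1, the liver-type fatty acid binding protein, read 7.80 in the VhlF/F array and 4.44, 5.14 and 4.32 in the VhlF/F/Apcmin/+, VhlΔIE and VhlΔIE/Apcmin/+ arrays. The apolipoprotein genes Apoa1, Apoc3 and Apoa4 differed by -3.46, -2.67 and -1.18. All 4 probe sets of Apoa1 above the floor were lower. With the mean over its probe sets, and without probe sets that can cross-hybridise, Apoa4 was no longer 2-fold apart. Tmigd1, an adhesion protein of the brush border, read 10.12 and 7.94, and 8.93 and 9.002 with deleted Vhl. Cyp2c65, an intestinal cytochrome P450, read 9.31 and 6.59, and 7.66 and 8.99 with deleted Vhl. The markers of absorptive colonocytes had a median of 0.00, with Tmigd1 the 2-fold member among 15 above the floor, and Aqp8, a water channel, read 12.64 and 12.74. In bulk tissue, fewer cells of a type and less RNA per cell cannot be told apart.

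Further genes were low in the VhlF/F/Apcmin/+ array alone by smaller amounts, and are named here after their values were seen. Mal, a membrane protein of apical sorting, read 8.39 in the VhlF/F array, 6.87 in the VhlF/F/Apcmin/+ array, 8.41 in the VhlΔIE array and 7.95 in the VhlΔIE/Apcmin/+ array. Golm2, a Golgi membrane protein, read 8.50, 6.91, 9.41 and 9.40 in the same order. Ddah1, which breaks down a natural inhibitor of nitric oxide synthase, read 9.78, 8.71, 10.49 and 10.54, and its 5 probe sets above the floor were lower by 0.51 to 1.09. Arg2, the mitochondrial arginase, read 6.11 in the VhlF/F array and 4.60 in the VhlF/F/Apcmin/+ array, and 6.90 and 6.68 with deleted Vhl. In these 4 genes every other array lay above the VhlF/F/Apcmin/+ array by more than 1. Gpat3, an enzyme of triglyceride synthesis, and Ces1g, a carboxylesterase, differed by -1.26 and -1.33.

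**Figure D3:**
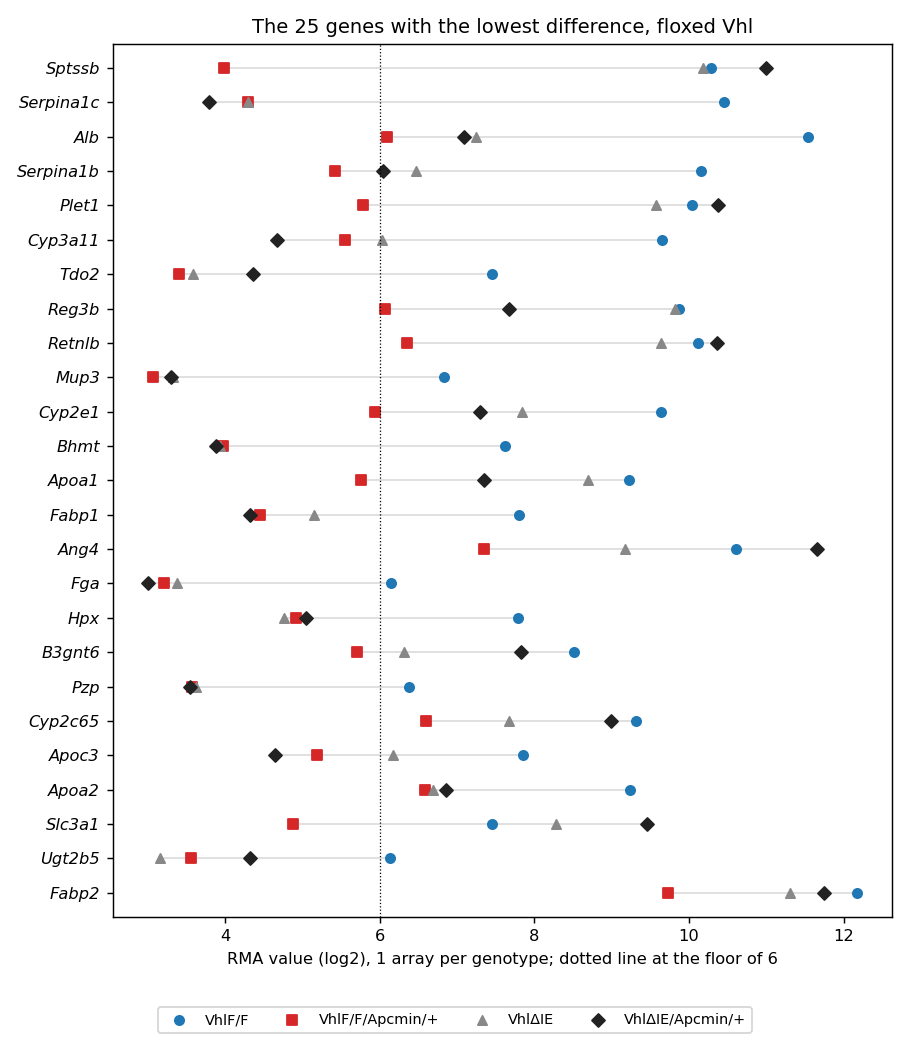
The 25 genes with the lowest difference, 1 row per gene, with the log2 value of each of the 4 arrays on the horizontal axis and a dotted line at the floor of 6. In the rows of Sptssb, Plet1 and Retnlb the red square of the VhlF/F/Apcmin/+ array lies alone on the left; in those of Serpina1c, Tdo2, Mup3, Bhmt, Fga, Hpx and Pzp the blue circle of the VhlF/F array lies alone on the right.

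Many of the lower genes were hepatocyte genes. Of 47 listed hepatocyte markers 35 passed the floor, and 27 of these were at least 2-fold lower, 25.2% of the 107 lower genes. None was 2-fold higher, and the list median was -2.23. Alb, the plasma protein albumin, read 11.53 in the VhlF/F array and 6.10 in the VhlF/F/Apcmin/+ array. The alpha-1-antitrypsin gene Serpina1c read 10.45 and 4.30, and 4.30 and 3.79 in the arrays with deleted Vhl. Cyp3a11, a cytochrome P450 of drug metabolism, read 9.65 and 5.55, and Tdo2, which breaks down tryptophan, 7.45 and 3.40. Cyp2e1, which oxidises ethanol, differed by -3.71 and the apolipoprotein gene Apoa2 by -2.64. Fga, the alpha chain of fibrinogen, read 6.15 in the VhlF/F array and 3.00 to 3.38 in the other 3. Probes may not separate Serpina1b, Serpina1c and Mup3 from close copies in their gene families. The VhlF/F array was the highest of the 4 in 29 of the 35 members. The mean level of the list was 8.08 in that array, and 5.84, 6.13 and 6.07 in the VhlF/F/Apcmin/+, VhlΔIE and VhlΔIE/Apcmin/+ arrays. Most of the 27 lower members, such as Fga, Ahsg and Hamp, reached the floor in the VhlF/F array only. That filter therefore fixes much of the counts, the means and the median of this list. With other processing settings the list median lay between -2.26 and -0.83. The 3 members that were higher with mutant Apc, Tat at 0.40, Ttr at 0.24 and Cyp2f2 at 0.22, are among those not 2-fold apart. Leaving the list out left 14 higher and 80 lower genes. Among the 16 genes off the list that the VhlF/F array set apart were other genes known from liver, such as the protease inhibitor gene Pzp at -2.81, the paraoxonase gene Pon1 at -2.01, the serum amyloid gene Saa4 at -1.72 and Gnmt, a glycine methyltransferase, at -1.08. Others are not known chiefly from liver, such as the sulfate carrier gene Slc13a1, which read 6.77 in the VhlF/F array and 4.54 to 5.38 in the other 3, and Rgs17, a regulator of G protein signalling, which read 9.11 there and 7.62 to 7.86 elsewhere. How RNA of hepatocyte genes came into a sample of colonic mucosa was not tested.

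The HNF1 core GTTAAT, the letters of a factor that drives many liver genes, occurred in 4.95% of all promoters of this length. It lay upstream of 6 of the 22 lower hepatocyte genes with a promoter, 27.3%, and of 6 of the 65 other lower genes, 9.23%. The 22 were listed as liver genes, so their share describes the list and not these arrays. A match shows no binding. Alb, at chr5:90460620-90460869, and Fga, at chr3:83025903-83026152, both on the plus strand of GRCm38.p6, are printed as examples with the core in capitals, on either strand. It begins 32 and 43 bases before the start.
Alb: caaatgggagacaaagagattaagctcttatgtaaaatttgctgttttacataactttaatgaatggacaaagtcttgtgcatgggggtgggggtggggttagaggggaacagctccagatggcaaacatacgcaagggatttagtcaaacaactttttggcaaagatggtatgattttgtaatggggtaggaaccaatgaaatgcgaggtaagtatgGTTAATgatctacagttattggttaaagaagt
Fga: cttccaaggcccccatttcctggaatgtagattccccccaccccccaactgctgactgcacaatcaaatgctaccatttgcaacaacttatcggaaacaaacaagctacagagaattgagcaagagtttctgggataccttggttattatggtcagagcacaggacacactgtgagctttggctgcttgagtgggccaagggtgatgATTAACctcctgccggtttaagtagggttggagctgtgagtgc

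Markers of other cells in the scraping were read as lists. Of 14 adipocyte markers above the floor 12 were lower, 4 by 2-fold or more, with a median of -0.50. Their mean level was 8.56 in the VhlF/F array, 7.91 in the VhlF/F/Apcmin/+ array, and 8.55 and 8.51 in the VhlΔIE and VhlΔIE/Apcmin/+ arrays. Car3, a carbonic anhydrase abundant in fat, read 11.12 and 9.36, the hormone gene Adipoq 7.64 and 6.28, and Lpl, lipoprotein lipase, 10.31 and 8.999. Smooth muscle markers were lower in 15 of 16 members, with a median of -0.25, and neuron and glia markers in 10 of 12, also with a median of -0.25. The VhlF/F array was the highest of the 4 in 15 of the 16 smooth muscle markers and in 9 of the 12 neuron and glia markers. The mean smooth muscle level was 11.05 in the VhlF/F array and 10.79 in the VhlF/F/Apcmin/+ array. It was 10.48 and 10.39 in the VhlΔIE and VhlΔIE/Apcmin/+ arrays. Macrophage and dendritic cell markers were higher in 18 of 18 members, with a median of 0.29 and none 2-fold apart, up to Cd68, a lysosomal glycoprotein, at 0.66. The VhlF/F/Apcmin/+ array was the highest of the 4 in 0 of the 18. Their mean level was 7.39 in the VhlF/F array and 7.73 in the VhlF/F/Apcmin/+ array. It was 8.24 and 8.16 in the VhlΔIE and VhlΔIE/Apcmin/+ arrays, and the list median with deleted Vhl was -0.06. Endothelial markers were higher in 15 of 18, with a median of 0.25, and fibroblast markers in 13 of 18, with a median of 0.23, including the proteoglycan Lum at 0.78 and excepting the BMP antagonist Grem1 at -0.73. Tuft cell markers had a median of -0.29 over 7 members. Rgs13, a regulator of G protein signalling, read 6.65 and 5.21, and Dclk1, the kinase used to mark tuft cells, 7.22 and 6.15, while both lay between 4.90 and 6.27 in the arrays with deleted Vhl. Of the 4 Dclk1 probe sets above the floor 3 were lower. Enteroendocrine markers were lower in 12 of 16, with the glucagon gene Gcg at -0.90. Lists of B, T and mast cells had medians between -0.19 and 0.11.

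Other metabolic, stress and immune response lists are given by their medians. Glycolysis had a median of 0.09, oxidative phosphorylation 0.01, fatty acid oxidation -0.05, cholesterol synthesis 0.04 and targets of hypoxia-inducible factors 0.03. The fatty acid oxidation list held 1 2-fold member, Pdk4, a kinase that turns off pyruvate oxidation, at -1.21. The hypoxia list also held 1, the carbonic anhydrase Car12, at -1.43. Xenobiotic metabolism had a median of -0.12, with 4 of 32 members 2-fold lower. Interferon response genes had a median of 0.01, and inflammatory mediators one of 0.08 over 13 of 30 listed genes. Iron genes had a median of 0.05, with the metalloreductase Steap4 at 0.97 and the hepcidin gene Hamp, which is also on the hepatocyte list, at -2.33. Immediate early and heat shock genes had 1 2-fold member, the chaperone Hspa1a at -1.003, close to Hsph1 at -0.95 and Hspa1b at -0.94. Of all 54 lists 26 held a 2-fold member, 9 a higher and 20 a lower one. Of the 48 lists with at least 5 members above the floor, 3 had a median of 0.25 or more and 4 one of -0.25 or less.

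**Figure D4:**
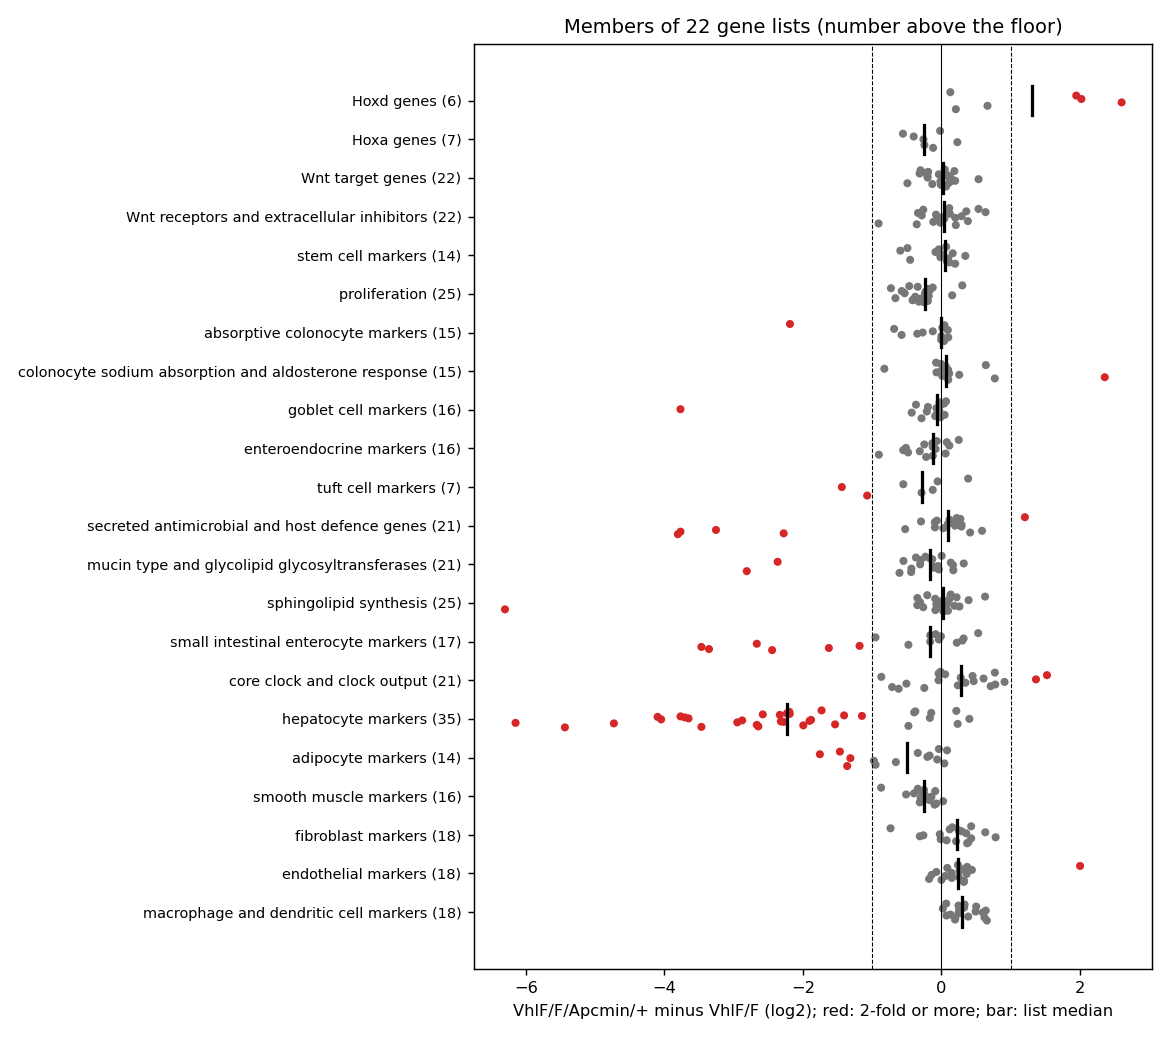
Differences of the members of 22 gene lists between the VhlF/F/Apcmin/+ and VhlF/F arrays on the log2 scale, 1 point per gene above the floor, with the list median as a black bar and 2-fold differences in red. Hoxd10, Hoxd11 and Hoxd13 lie at 1.95 to 2.60, most hepatocyte markers lie below -1, and the Wnt target, receptor and stem cell lists lie around 0.

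The mutation was also present in the VhlΔIE/Apcmin/+ array, and its comparison with the VhlΔIE array uses neither of the floxed arrays. A 2-fold higher level was found there for 24 genes, 0.202%, and a 2-fold lower level for 14, 0.118%. Over all genes, 50.5% of the differences with deleted Vhl were positive, and the counts by direction below are to be read beside that share. Of the 14 genes higher with floxed Vhl 9 had the same direction with deleted Vhl, and Hoxd10 and Dbp were 2-fold higher there too, which is 14.3% of the 14 and 8.33% of the 24. Hoxd10 differed by 1.38 and Dbp by 2.20 with deleted Vhl. Hoxd11 and Hoxd13 differed by 0.71 and 0.40, Scnn1g by -0.02 and S100g by -0.29. The median of the 14 genes was 1.60 with floxed and 0.08 with deleted Vhl. Of the 107 lower genes 44 had the same direction with deleted Vhl, 41.1%, and their median was -1.52 with floxed and 0.05 with deleted Vhl. Apoa1, Apoa4, Apoc3, Cyp3a11, Reg3b, Reg3g and Slc34a2 were 2-fold lower in both, 6.54% of the 107 and 7 of the 14. A larger number of the 107, 9 genes, were 2-fold higher with deleted Vhl, and these are named further below. Slc34a2, a phosphate carrier, read 8.64 and 7.56 in the floxed arrays, and 10.33 and 9.14 in the deleted ones. Sptssb, Plet1 and Retnlb, low in the VhlF/F/Apcmin/+ array alone, differed by 0.83, 0.80 and 0.73 with deleted Vhl. With 1 array per genotype, whether the effect of the mutation differs between the backgrounds could not be tested.

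**Figure D5:**
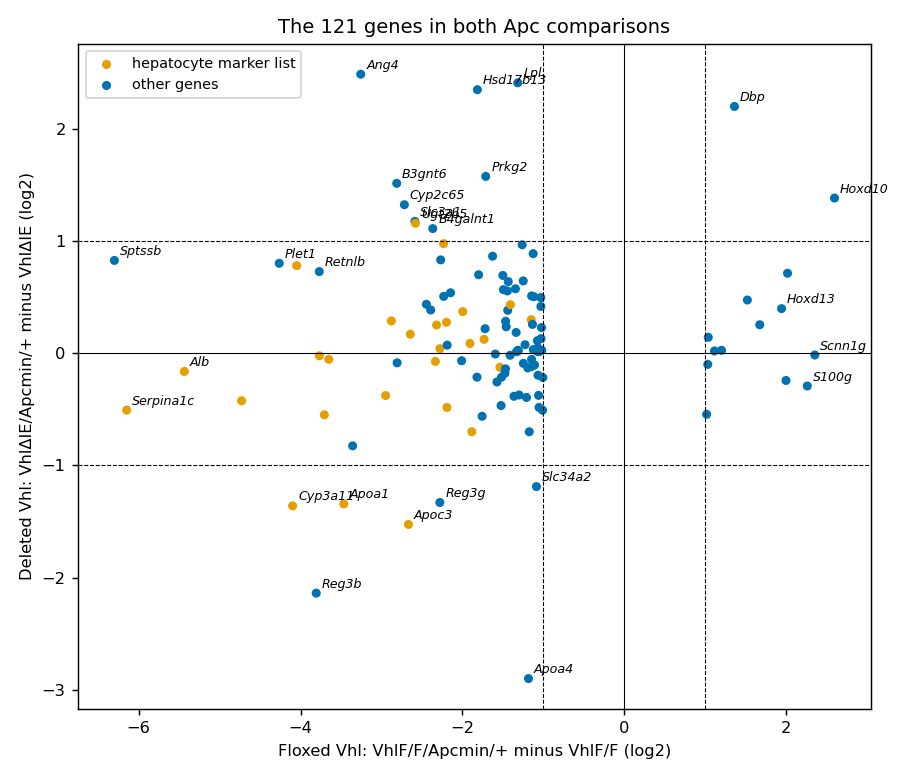
The 121 genes at least 2-fold apart with floxed Vhl, with that difference on the horizontal axis and the difference between the VhlΔIE/Apcmin/+ and VhlΔIE arrays on the vertical axis, both log2, dashed lines at 2-fold. Most points lie between the horizontal dashed lines; Hoxd10 and Dbp lie in the upper right, Reg3b, Reg3g and Apoa4 in the lower left, and Ang4, Lpl and Hsd17b13 in the upper left, where the directions oppose.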

How the data were processed

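Colon mucosa of 4 genotypes was measured on 1 Affymetrix array each, with 45101 probe sets. The authors deposited log2 values; the submitters' processing notes name affy and RMA, without versions. Which arrays shared a normalization is not given in the sources used here. RMA corrects background, brings arrays to 1 distribution and summarises probes, so a shift of all transcripts would not be seen and differences near background are understated. Array medians lay between 6.05 and 6.07. Precision is limited by the number of arrays.

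Names came from GEO's platform annotation: 34958 probe sets had 1 symbol, 932 several and 9211 were unlisted. Entrez identifiers of 34754 were found in the mouse RefSeq table of GRCm38.p6, used for names and gene order, and 0 symbols changed. Promoter sequences are RefSeq's. The members and the 54 gene lists were chosen with earlier results of these data known.

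Differences are 1 array minus another. Genes named in the text were drawn from those 2-fold higher, the 25 lowest, up to 5 members per list with the largest difference, 2-fold list members, all Hoxd genes, Apc, Ctnnb1, Vhl, sex-linked genes, and the 10 genes furthest apart in each floxed array. Symbols of clones and predicted genes were left unnamed. Other names were chosen for their known role or after their values were seen.

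Alternatives were no floor, a floor of 7, a floor in the 2 arrays compared, values under 6 raised to 6, the mean over probe sets, no cross-hybridising probe sets, cyclic loess, a 1.5-fold threshold and leaving out hepatocyte markers. The counting was tested on simulated data. Tools were limma 3.58.1 under R 4.3.3, and Python 3.11.15 with pandas 2.3.3, numpy 2.4.6 and matplotlib 3.10.9.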

Additional observations from a re-analysis of the deposited data

Results flagged for a closer look

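In 9 genes the Apc mutation went with a 2-fold difference in opposite directions in the floxed and deleted Vhl backgrounds, lower with floxed and higher with deleted Vhl. They are 9 of the 107 genes lower with floxed Vhl and 9 of the 24 higher with deleted Vhl. With values under 6 raised to 6, Hsd17b13, Prkg2 and Ugt2b5 were no longer 2-fold apart with floxed Vhl. Each rests on 1 array per genotype, and the difference between backgrounds was not tested. Ang4, an antimicrobial ribonuclease, differed by -3.26 with floxed and 2.49 with deleted Vhl. B3gnt6, which makes core 3 mucin glycans, differed by -2.81 and 1.51, and B4galnt1, a ganglioside enzyme, by -2.36 and 1.11. The cytochrome P450 gene Cyp2c65 differed by -2.72 and 1.32, and Ugt2b5, a glucuronosyltransferase that is on the hepatocyte list, by -2.58 and 1.16, with 3.55, 3.16 and 4.32 in the VhlF/F/Apcmin/+, VhlΔIE and VhlΔIE/Apcmin/+ arrays, all below 6. Slc3a1, the amino acid transporter subunit, differed by -2.59 and 1.18. Hsd17b13, a lipid droplet enzyme, differed by -1.81 and 2.35, and read 5.66 and 3.85 with floxed Vhl, both below 6. Prkg2, a cGMP-dependent kinase of the epithelium, differed by -1.71 and 1.58. Lpl, lipoprotein lipase, differed by -1.31 and 2.41, and is also one of the adipocyte markers.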

How the results depend on the processing

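The count of 121 genes, 14 higher and 107 lower, lay between 89 and 143 under the alternatives at the 2-fold threshold. At a 1.5-fold threshold 405 genes were apart, 125 higher and 280 lower, so 30.86% were higher, against 11.57%; the VhlF/F array was then apart for 63 and the VhlF/F/Apcmin/+ array for 69. At that threshold 213 genes had the same direction with deleted Vhl, 140 of them lower, and 36 passed it in the same direction. The count of genes set apart by the VhlF/F array, 32, was 16 at a floor of 7, 19 with values under 6 raised to 6 and 16 without hepatocyte markers. With values under 6 raised to 6, 34 genes had the same direction with deleted Vhl, against 53, and 27 of them were lower, against 44. Of the called genes, 121 of 121 stayed 2-fold apart after cyclic loess, 92 of 92 at a floor of 7, 89 of 101 with the mean over probe sets and 89 of 121 with values raised to 6. The Hoxd median ranged from 0.30 to 1.95 and the hepatocyte median from -2.26 to -0.83. Of 55 other probe sets of called genes above the floor, 52 had the same direction; those of Cttnbp2, Dclk1 and Thrsp opposed. No paired analysis was possible because each genotype had 1 array. Depth does not apply to arrays, and values below 6 are close to background, so folds that reach below it are understated.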

Other observations

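Noncoding transcripts of the imprinted Dlk1-Meg3 domain on chromosome 12, chosen after their values were seen, were lower together with mutant Apc and floxed Vhl. The maternally expressed RNA Rian read 9.89 in the VhlF/F array, 7.75 in the VhlF/F/Apcmin/+ array, 9.09 in the VhlΔIE array and 9.62 in the VhlΔIE/Apcmin/+ array. Meg3 read 10.34, 8.84, 9.45 and 10.14 in the same order, and Mirg 6.65, 5.52, 6.15 and 6.41. Dlk1, the paternally expressed protein-coding gene of the domain, read 7.12, 5.997, 6.98 and 7.87. All 17 probe sets of these 4 genes above the floor were lower, 11 of them by 2-fold or more, between -2.15 and -0.29. Meg3 alone has 11 of the 17, and probe sets of 1 gene on the same arrays are not separate evidence. Dlk1 was no longer 2-fold apart with the mean over its probe sets, nor was Mirg with values under 6 raised to 6. In each of the 4 genes the VhlF/F/Apcmin/+ array was the lowest.

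Shh, a hedgehog ligand of the epithelium, read 6.74 in the VhlF/F array, 5.49 in the VhlF/F/Apcmin/+ array, 5.76 in the VhlΔIE array and 6.41 in the VhlΔIE/Apcmin/+ array, and was also chosen after its values were seen. Around Apc on chromosome 18, 20 measured neighbours differed by -0.23 to 0.34 and none was 2-fold apart. Of 293 genes of that chromosome above the floor, 1 was 2-fold apart, Ctxn3, which is 0.34% against 1.02% of all genes. Chromosomes X and 11 had like shares, 0.30% and 0.50%. Among the probe sets without exactly 1 symbol 3488 passed the floor, of which 3 were 2-fold higher and 29 2-fold lower.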
